A study of Mus musculus with 8 samples.

Results

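Interferon response genes were followed in ileal tissue of wild-type and Gsdme-deficient mice given irinotecan; Gsdme encodes the pore-forming protein gasdermin E. The set comprises 39 genes of the type I and type III interferon pathways, named by symbol: the receptors, the ISGF3 transcription factors, cytosolic nucleic acid sensors and interferon-stimulated genes. All 39 were found, each once, among the 55487 genes of the deposited table, and all 39 passed the filter on low values. Bulk poly(A) RNA-seq gave 4 libraries from wild-type mice (Gsdme+/+, called WT) and 4 from Gsdme-deficient mice (Gsdme-/-, called Gsdme_KO), which the labels number as separate mice. Every mouse of both groups had received irinotecan, a topoisomerase I inhibitor, and untreated mice were not analysed here, which leaves the response to the drug itself undescribed. The sources used here do not give strain, age, sex, dose, time of collection or the way the allele was made.

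Type I interferons signal through the receptor pair IFNAR1 and IFNAR2, whereas type III interferons signal through IFNLR1 and IL10RB, a pair used mainly by epithelium. Both activate the kinases JAK1 and TYK2 and, through them, the transcription factor complex ISGF3, which contains STAT2 and IRF9 and binds interferon-stimulated response elements in target promoters. The gut epithelium is known for a standing, microbiota-dependent expression of such genes, and interferon-gamma induces a partly shared set. In bulk tissue, fewer cells of a type and less RNA per cell cannot be told apart.

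None of the 39 genes passed the test for a difference between the genotypes. By limma on log2(normalized count + 1), with Benjamini-Hochberg adjustment over 16352 genes, 0 were called higher and 0 lower at an adjusted p under 0.05 (background 0.00612% and 0.0% of tested genes). At an unadjusted p under 0.05 there were again 0 higher and 0 lower members, against a background of 2.61% and 1.77%. On recovered reads, edgeR called 0 members (background 0.00612% higher, 0.0% lower) and DESeq2 called 0 (background 0.0489% higher, 0.00612% lower). At an unadjusted p under 0.05, edgeR gave 1 higher member (background 4.43%) and 0 lower (1.58%), and DESeq2 likewise 1 higher (5.12%) and 0 lower (1.82%). That member was Ifi44 in both. In no member did the 4 libraries of the genotypes separate, against 1.31% of tested genes higher and 1.19% lower without overlap. The median log2 difference (Gsdme_KO minus WT) was 0.05 over the members and 0.00 over all tested genes, with 25 members above 0 (background 50.6%) and 14 below (background 49.4%). The members spread more widely among Gsdme_KO libraries than among WT libraries, with 1 library, KO4, at the top for most of them.

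Libraries are called by the headers of the deposited table (WT3, WT5, WT7, WT8, KO4, KO5, KO7 and KO8) and held 15617407 to 23437343 reads in genes. Gsdme ran from 2169 to 3376 normalized counts in WT and from 113 to 634 in Gsdme_KO (log2 difference -3.32, exact permutation p = 0.0286, two-sided, the smallest that 70 assignments allow; limma adjusted p = 0.786). Which part of the gene was disrupted is not known here. In cell type markers, KO4 and KO5 differed from the remaining 6 libraries. The summed level of 9 B cell genes was 10513 in KO4, 5938 in KO5 and 245 to 363 elsewhere, and that of 10 ileal enterocyte genes was 154188 and 228657 against 325167 to 614074. The 9 T cell genes summed to 3241 and 1961, with 1184 in KO7, 1243 in KO8 and 656 to 1199 in WT. Without KO4 and KO5 their median log2 difference was still 0.46. The ileal markers Fabp6 and Slc10a2 were present in all 8 libraries, as were the epithelial markers, whose sum ran from 183585 to 218341. Results are therefore given with all libraries, without KO4, and without KO4 and KO5. The last fit was chosen after seeing the data and leaves only KO7 and KO8 in Gsdme_KO. Where KO4 is the highest library, leaving it out must lower the difference. Unadjusted p values of these fits are therefore descriptive only.

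**Figure D1:**
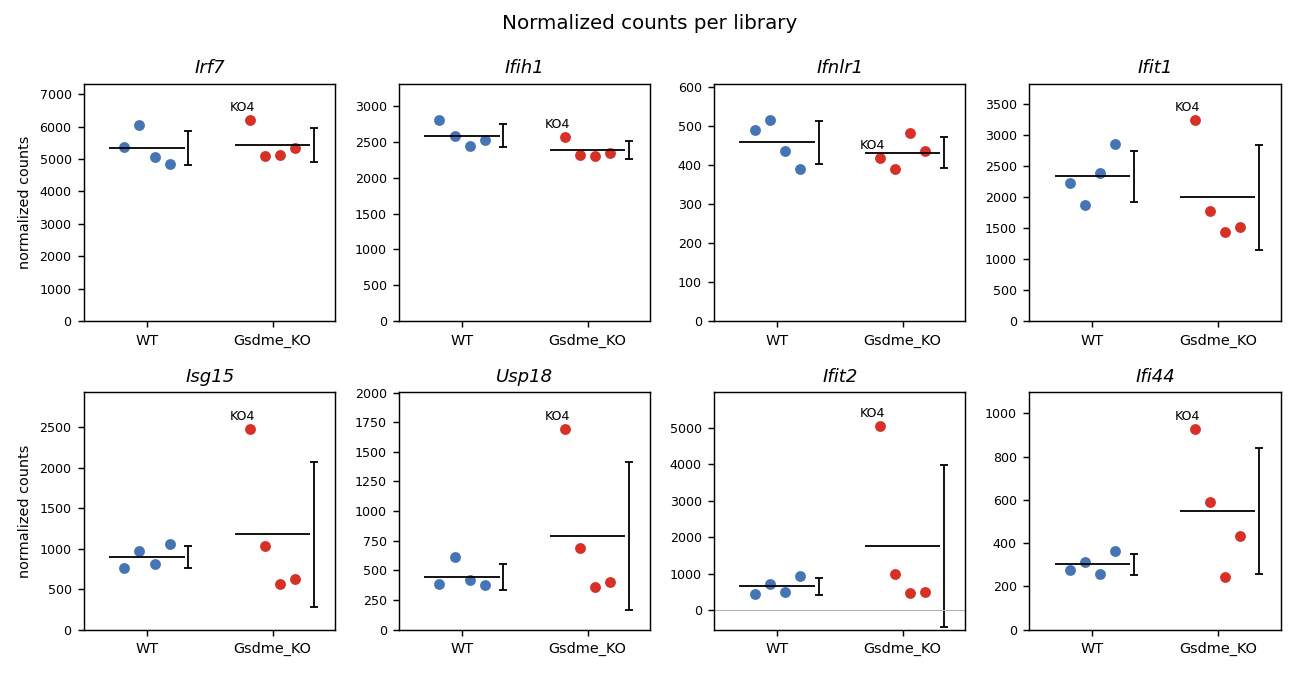
Normalized counts (y axis, linear, per gene) of 8 interferon response genes in 4 WT (blue) and 4 Gsdme_KO (red) libraries. Points are libraries, horizontal lines are means and vertical bars are SD (n = 4). KO4 is the highest library for Isg15 (2481), Usp18 (1696), Ifit2 (5054), Ifi44 (930), Ifit1 (3247) and Irf7 (6207), but not for Ifih1 and Ifnlr1. Irf7, Ifih1 and Ifnlr1 stay within a narrow range.

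The receptors were expressed in every library, and Ifnar1 varied less between libraries than Ifnar2. Normalized counts of Ifnar1, a chain of the type I receptor, were 935, 946, 857 and 864 in WT (WT3, WT5, WT7 and WT8, the order used throughout). In Gsdme_KO they were 1045, 890, 878 and 882 (KO4, KO5, KO7 and KO8). Its log2 difference was 0.03 (SE 0.0853, 95% interval -0.16 to 0.23, limma adjusted p = 0.945). Ifnar2, the partner chain that binds ligand first, had 279, 344, 250 and 316 in WT and 510, 393, 281 and 301 in Gsdme_KO. Its log2 difference was 0.29 (SE 0.198, limma adjusted p = 0.849), falling to 0.12 without KO4. For both chains the genotypes overlapped and KO4 was the highest of the 8 libraries.

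Ifnlr1, the ligand-specific chain of the type III receptor, behaved otherwise, being highest in WT5. It had 489, 516, 435 and 391 in WT and 418, 390, 482 and 436 in Gsdme_KO, a log2 difference of -0.08 (SE 0.115, 95% interval -0.34 to 0.18, limma adjusted p = 0.902). KO4 and KO5 lay in the lower part of its range, as they did for the summed enterocyte markers, whose part in this was not tested.

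Irf7, which amplifies type I interferon production, was among the most abundant members, at 5374, 6043, 5063 and 4837 in WT and 6207, 5099, 5124 and 5333 in Gsdme_KO. Its log2 difference was 0.03 (SE 0.103, 95% interval -0.20 to 0.26, limma adjusted p = 0.957), with KO4 the highest and WT8 the lowest library. Stat2, the ISGF3 subunit specific to type I and III signalling, had 1709, 2211, 2120 and 2047 in WT and 3699, 2009, 1553 and 1982 in Gsdme_KO (log2 difference 0.12, SE 0.238, limma adjusted p = 0.931). Only KO4 lay above all WT libraries for Stat2, and without it the log2 difference was -0.13. Irf9, the DNA-binding subunit, had 927 to 1246 in WT and 796 to 1419 in Gsdme_KO.

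Of the 5 sensors and their partners, 4 had a log2 difference below 0 (background 49.4%), none of them called (background 0.0% lower). Ifih1, which encodes the double-stranded RNA sensor MDA5, had 2810, 2583, 2441 and 2529 in WT and 2571, 2316, 2301 and 2344 in Gsdme_KO (log2 difference -0.12, SE 0.076, 95% interval -0.29 to 0.05, limma adjusted p = 0.849). KO5, KO7 and KO8 were below every WT library for Ifih1, and KO4 was inside the WT range. Trim25, a ubiquitin ligase of the RIG-I pathway, had 4653, 4887, 5192 and 4514 in WT and 5684, 4605, 3908 and 3878 in Gsdme_KO. Its log2 difference was -0.11 (SE 0.13, limma adjusted p = 0.882) with all libraries and -0.30 (unadjusted p = 0.0122, limma adjusted p = 0.999) without KO4 and KO5.

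Ddx60, a helicase linked to RIG-I signalling, ran from 1331 to 2080 in WT and from 1200 to 1837 in Gsdme_KO, with KO4 the lowest of the 8. Dhx58, which encodes LGP2, a regulator of MDA5, ran from 319 to 440 in WT and from 239 to 583 in Gsdme_KO. Eif2ak2, which encodes the RNA-dependent kinase PKR, ran from 1173 to 1471 in WT and from 954 to 1825 in Gsdme_KO. For Dhx58 and Eif2ak2, KO4 was the highest and KO7 the lowest library of the 8.

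Active members of the OAS family make 2′-5′ oligoadenylates in response to double-stranded RNA. Oasl2 had 3849, 4499, 4589 and 4259 in WT and 7898, 5022, 3459 and 4437 in Gsdme_KO (log2 difference 0.21, SE 0.221, limma adjusted p = 0.866). Oasl1 had 3285, 4111, 3037 and 2384 in WT and 8758, 4039, 3331 and 3089 in Gsdme_KO (log2 difference 0.47, SE 0.321, limma adjusted p = 0.849). KO4 exceeded the other 7 libraries for both, and without it the log2 difference was -0.01 for Oasl2 and 0.14 for Oasl1. Among the other 4 genes, KO4 stood at 1.20-fold the WT mean for Oas1a, 1.12-fold for Oas1g, 1.20-fold for Oas3 and 2.11-fold for Oas2. Oas2 stood at 175 in KO7 against 259 to 539 in WT.

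Some IFIT proteins bind the ends of foreign RNA and block its translation, and the levels of the 4 family members differed among themselves. Ifit2 had 450, 729, 501 and 944 in WT and 5054, 991, 461 and 505 in Gsdme_KO. KO4 was 7.70-fold above the WT mean, the largest such ratio in the set, while KO7 and KO8 lay within the WT range. The log2 difference of Ifit2 was 0.73 (SE 0.695, 95% interval -0.85 to 2.31, limma adjusted p = 0.855) with all libraries, -0.03 without KO4 and -0.38 without KO4 and KO5.

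Ifit1, the cap-binding member, pointed the other way. It had 2225, 1876, 2383 and 2863 in WT and 3247, 1769, 1434 and 1523 in Gsdme_KO, so KO4 was the highest library and the other 3 were below every WT library. Its log2 difference was -0.30 (SE 0.254, 95% interval -0.87 to 0.28, limma adjusted p = 0.849), -0.56 without KO4 (unadjusted p = 0.00456, limma adjusted p = 0.9998) and -0.64 without KO4 and KO5 (unadjusted p = 0.00314, limma adjusted p = 0.999). Ifit3 ran from 587 to 734 in WT with 1529 in KO4 and 534 to 659 in KO5, KO7 and KO8, and Ifit3b ran from 107 to 156 in WT, 270 in KO4 and 96.2 to 158 in the other 3.

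Ifit3 and Ifit3b on chromosome 19 are neighbouring copies that share part of their sequence, as are Oas1a and Oas1g on chromosome 5. Of the 50-base words in GENCODE transcripts of Ifit3, 51.2% occur in those of Ifit3b, and 44.5% the other way round. Of those of Oas1a, 57.6% occur in Oas1g, and 45.2% the other way round. Reads from shared words could be split between copies, so their separate levels are uncertain.

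The copies share promoter sequence as well. RefSeq promoter windows of 300 bases (250 before to 50 after each start, GRCm38.p6) were available for 29 of the 39 members. Each was searched on both strands for GAAA, any 2 bases and GAAA again, a core of the interferon-stimulated response element, counting overlapping matches. It occurred in 13 of the 29 members (44.8%) and in 3.99% of the 27025 genes with a window. The sequences below are shown because they carry the element the pathway acts through, at the 8 members with at least 2 matches upstream of the start, which include both pairs of copies. Oas3, Rsad2 and Stat2 had 1 match upstream each and are not shown. They run 5′ to 3′ along the gene's strand with matched bases in capitals, overlapping matches joined, and a match to the other strand read as its reverse complement.
Isg15, chr4:156200853-156200918, minus strand: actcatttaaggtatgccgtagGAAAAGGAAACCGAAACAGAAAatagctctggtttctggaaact
Bst2, chr8:71537565-71537624, minus strand: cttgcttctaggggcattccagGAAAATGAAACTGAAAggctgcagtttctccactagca
Ifit1, chr19:34640763-34640835, plus strand: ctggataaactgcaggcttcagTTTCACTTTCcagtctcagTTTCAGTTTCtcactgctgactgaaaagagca
Ifit3, chr19:34583351-34583438, plus strand: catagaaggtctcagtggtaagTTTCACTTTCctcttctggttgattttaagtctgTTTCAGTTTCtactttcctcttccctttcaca
Ifit3b, chr19:34607747-34607834, plus strand: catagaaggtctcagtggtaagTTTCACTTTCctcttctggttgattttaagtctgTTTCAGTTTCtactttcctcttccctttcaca
Oas1a, chr5:120907526-120907567, minus strand: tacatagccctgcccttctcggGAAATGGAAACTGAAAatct
Oas1g, chr5:120887614-120887653, minus strand: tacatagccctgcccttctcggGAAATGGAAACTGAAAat
Ddx60, chr8:61928012-61928086, plus strand: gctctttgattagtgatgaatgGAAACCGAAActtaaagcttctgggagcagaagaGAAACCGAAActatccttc

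Over the stretch shown, Ifit3 and Ifit3b were identical at 88 of 88 bases, and Oas1a and Oas1g at 40 of 40. Isg15 held 3 overlapping matches and Ddx60 held 2 that do not overlap. KO4 stood at 2.76-fold the WT mean for Isg15 and 0.747-fold for Ddx60. A window was available for 10 of the 13 members whose KO4 value was at least 2-fold the WT mean. The match was found in 4 of those 10, and in 9 of the 19 other members with a window. Whether the match goes with the KO4 values was not tested. A match describes letters in this window and is not a measured binding site.

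ISG15 is a ubiquitin-like protein that is attached to targets by enzymes such as HERC6 and removed by USP18, which also restrains type I receptor signalling. Isg15 had 758, 977, 808 and 1051 in WT and 2481, 1029, 567 and 631 in Gsdme_KO. KO7 and KO8 were below every WT library, KO5 was inside the WT range and KO4 was above it. The log2 difference of 0.13 (SE 0.417, 95% interval -0.81 to 1.08, limma adjusted p = 0.952) became -0.31 without KO4 and -0.57 without KO4 and KO5 (unadjusted p = 0.00465, limma adjusted p = 0.999).

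Usp18 had 388, 610, 415 and 375 in WT and 1696, 689, 357 and 405 in Gsdme_KO (log2 difference 0.55, SE 0.448, limma adjusted p = 0.849). KO4 and KO5 were above all WT libraries for Usp18, whereas KO7 and KO8 were within or below the WT range, and without KO4 the log2 difference was 0.08. Herc6 had 314 to 578 in WT, 1242 in KO4 and 317 to 520 in the other 3.

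Other antiviral effectors spanned both directions. Ifi44, an inhibitor of virus replication in cultured cells, had the smallest p of the set (unadjusted p = 0.0752, limma adjusted p = 0.849). It had 275, 312, 258 and 364 in WT and 930, 589, 245 and 435 in Gsdme_KO, so KO4, KO5 and KO8 exceeded every WT library while KO7 was below all of them. Its log2 difference was 0.71 (SE 0.353, 95% interval -0.09 to 1.52), 0.41 without KO4 and 0.12 without KO4 and KO5.

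Rsad2 and Cmpk2 lie close together on chromosome 12 and encode viperin, which makes a chain-terminating nucleotide, and the kinase that supplies its substrate. Rsad2 had 669, 586, 781 and 781 in WT and 875, 498, 562 and 630 in Gsdme_KO (log2 difference -0.16, SE 0.179, limma adjusted p = 0.876). Cmpk2 had 1414, 1175, 1184 and 1079 in WT and 1018, 796, 1372 and 1064 in Gsdme_KO (log2 difference -0.21, SE 0.161, limma adjusted p = 0.849). KO4 was the highest library for Rsad2 but among the lower ones for Cmpk2, and KO5 was the lowest for both.

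Rtp4, a Golgi chaperone induced by interferon, had 845, 878, 1047 and 835 in WT and 1124, 1027, 546 and 838 in Gsdme_KO (log2 difference -0.07, SE 0.211, limma adjusted p = 0.95). Its KO7 value was below those of the other 7 libraries. Bst2, which encodes the virion-retaining protein tetherin, had 551 to 812 in WT, 2034 in KO4 and 518 to 940 in the other 3. Isg20, an exonuclease, had 70.8 to 108 in WT, 306 in KO4 and 62.1 to 128 in the other 3, and its 51 reads in KO7 were the fewest of any member in any library. Xaf1, a pro-apoptotic inhibitor of XIAP, had 478 to 555 in WT, 1147 in KO4 and 414 to 653 in the other 3. The dynamin-like Mx1 and Mx2 had wide ranges already in WT, at 129 to 285 and 107 to 222, with 371 and 287 in KO4. For these 5 genes KO4 was the highest library and KO7 the lowest.

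The PARP9 and DTX3L proteins form a complex with ubiquitin ligase activity, and PARP14 is a further ADP-ribosyltransferase. Their 3 genes lie close together on chromosome 16. Parp14 had 4065, 4324, 4459 and 4678 in WT and 7840, 4318, 2992 and 3207 in Gsdme_KO (log2 difference -0.04, SE 0.272, limma adjusted p = 0.979). With KO4 on 1 side of WT and KO7 and KO8 on the other, the difference lay near 0, and it was -0.50 without KO4 and KO5 (unadjusted p = 0.000745, limma adjusted p = 0.999). Dtx3l had 2968, 3265, 3640 and 3229 in WT and 5240, 3371, 2522 and 2770 in Gsdme_KO (log2 difference 0.03, SE 0.209, limma adjusted p = 0.982; -0.31 without KO4 and KO5). Parp9 had 2943 to 3188 in WT, 4627 in KO4 and 2733 to 3164 in the other 3. Exons of Dtx3l and Parp9 overlap by 458 bases on opposite strands, and the strand setting of the counting is not given in the sources used here, so reads there cannot be assigned with certainty.

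Of the small hydrophobic IFI27 proteins, Ifi27 was 1 of 5 members that were not highest in KO4. It had 962, 1229, 949 and 814 in WT and 716, 944, 1051 and 1173 in Gsdme_KO (log2 difference -0.03, SE 0.173, limma adjusted p = 0.974), and KO4 was below the other 7 libraries. Its neighbour Ifi27l2a had 519 to 796 in WT, 1632 in KO4 and 676 to 800 in the other 3, and the transcripts of both share no 50-base word. Ifi35, a partner of NMI, had 1535, 1874, 1621 and 1463 in WT and 2258, 1593, 1495 and 1516 in Gsdme_KO (log2 difference 0.06, SE 0.146, limma adjusted p = 0.937).

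**Figure D2:**
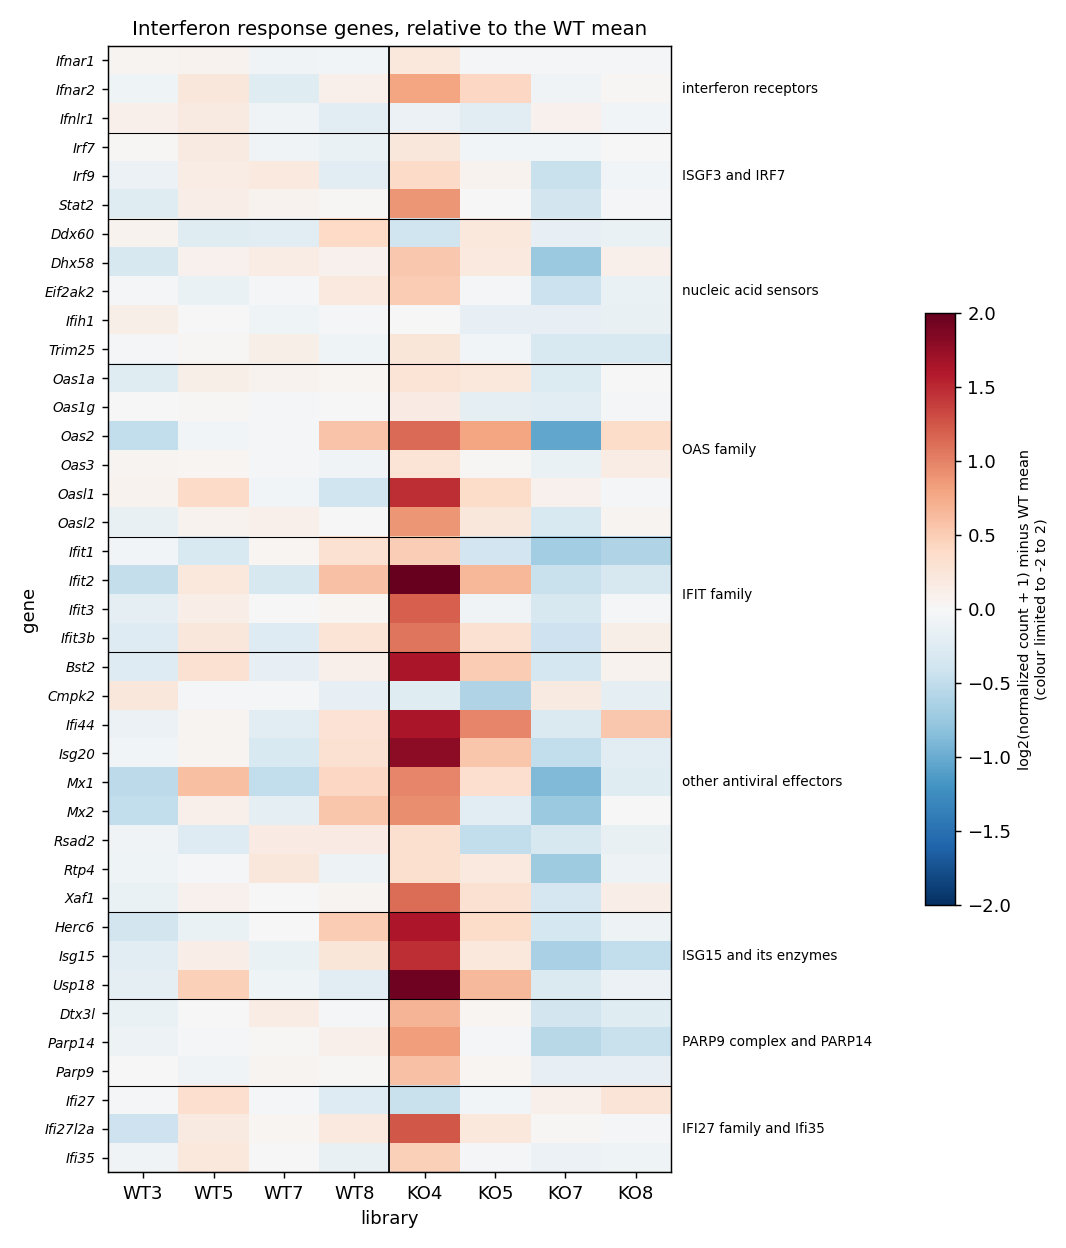
Each row is 1 of the 39 genes, grouped by role, and each column a library; colour gives log2(normalized count + 1) minus the mean of the 4 WT libraries, limited to -2 to 2. The KO4 column is highest in 34 rows and the KO7 column lowest in 25, and the exceptions for KO4 are Ifi27, Ifnlr1, Ddx60, Ifih1 and Cmpk2.

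The highest library was the same in most members, and so was the lowest. KO4 held the highest value of the 8 libraries in 34 of 39 members, against 25.6% of all tested genes, and KO7 the lowest in 25 of 39, against 11.6%. The mean over members of the log2 value minus the WT mean was 0.77 for KO4, 0.14 for KO5, -0.33 for KO7 and -0.07 for KO8, with WT libraries between -0.13 and 0.09. Over all tested genes the same mean ran from 0.0103 to 0.0686 in the Gsdme_KO libraries. KO4 was at least 2-fold above the WT mean in 13 members (background 8.04%) and 2-fold below it in 0 (background 7.07%), whereas KO5 was so in none (background 4.9%). KO7 was below all 4 WT libraries in 27 members (background 17.2%), and KO8 in 10 (background 14.5%). The SD of log2 values was larger in Gsdme_KO than in WT for 35 of 39 members, compared with 59.5% of all tested genes.

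The sign of the median genotype difference over members depended on KO4. Since KO4 was the highest library in 34 members, leaving it out had to lower their differences. Without KO4, 11 members had a log2 difference above 0 (background 50.9%) and 28 below (background 49.1%), with a median of -0.07. Without KO4 and KO5, 6 were above (background 52.0%) and 33 below (background 48.0%), with a median of -0.17. At an unadjusted p under 0.05, 4 members were lower without KO4 (Ifit1, Parp14, Rsad2 and Trim25; background 1.46%) and 6 without KO4 and KO5 (Dtx3l, Ifit1, Isg15, Parp14, Rtp4 and Trim25; background 1.71%), and 0 were higher in either (background 1.54% and 1.03%). None was called after adjustment in either fit (smallest limma adjusted p = 0.9998 and 0.999, background 0.0% of tested genes lower without KO4 and 0.00617% without both). Of the fits that left out a single library, only the one without KO4 turned the median. Without KO7, 3 members were higher at an unadjusted p under 0.05 (Ifi44, Oas2 and Xaf1; background 6.01%) and 1 lower (Cmpk2; background 5.6%). With libraries weighted by quality, 1 was higher (Ifi44; background 3.73%) and 3 lower (Ifih1, Ifit1 and Trim25; background 3.88%).

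**Figure D3:**
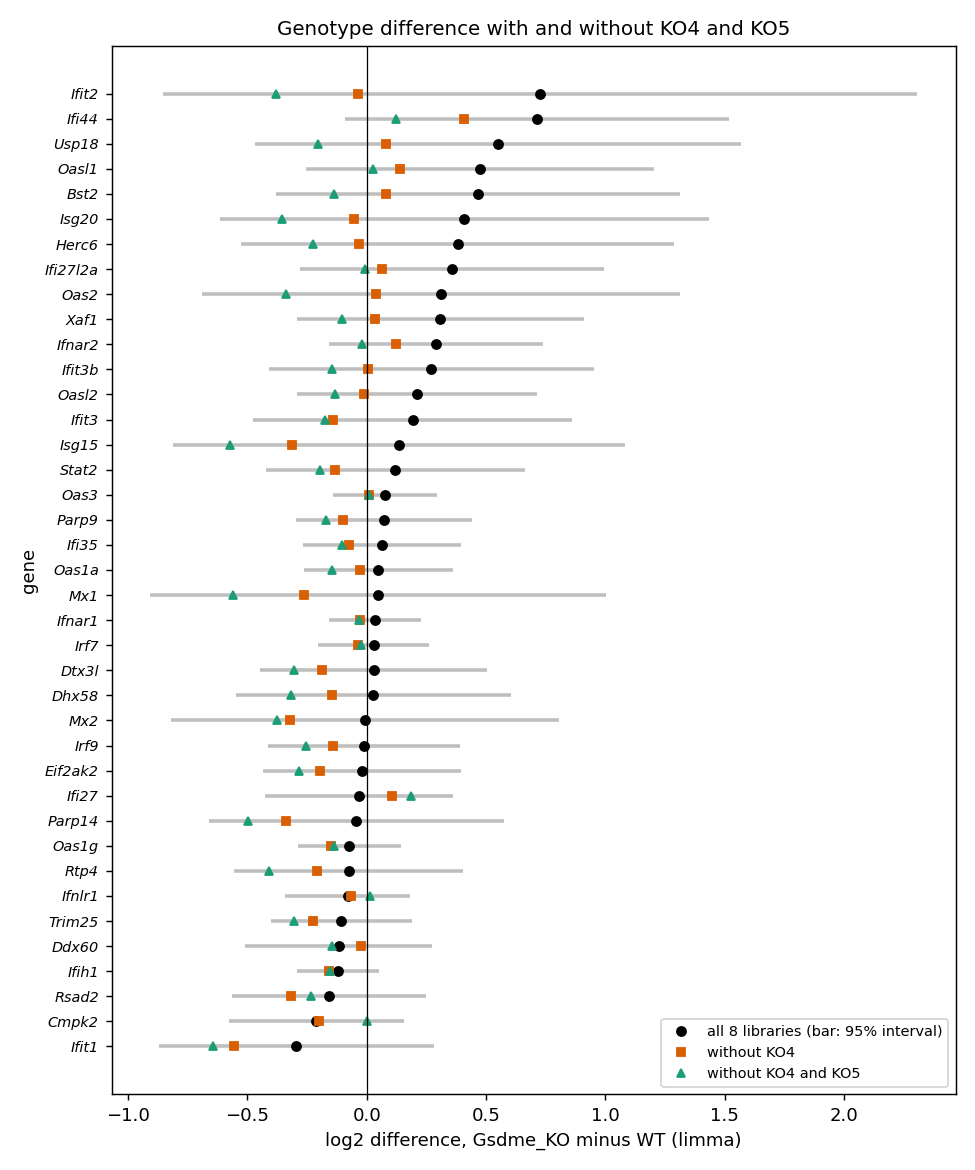
Log2 difference (Gsdme_KO minus WT, limma, x axis) of each of the 39 genes (y axis), with all 8 libraries (black, bar: 95% interval), without KO4 (orange) and without KO4 and KO5 (green). All 39 intervals include 0, and the number of genes above 0 goes from 25 to 11 and to 6.

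The intervals set how large a difference could have gone unseen. For 29 of 39 members the 95% interval lay within 1 on the log2 scale, that is within 2-fold, and for 13 it lay within 0.5. The 10 with wider intervals were Ifit2, Ifi44, Usp18, Oasl1, Bst2, Isg20, Herc6, Oas2, Isg15 and Mx1. Members had 51 to 9502 reads in a library, and the SE ran from 0.076 for Ifih1 to 0.695 for Ifit2.

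Interferon transcripts themselves were nearly undetected. The 13 type I and III ligand genes examined, among them Ifnb1, Ifnl2 and Ifnl3, had 24 reads together over all 8 libraries. Per library they summed to 7 reads in KO4 and 0 to 4 in the other 7, and no single gene had more than 4 in a library. Ifnb1, Ifnl2, Ifna1, Ifna4, Ifna5 and Ifna9 had 0 reads in every library, which allows up to 2.25 to 3.65 normalized counts per library (3 reads, counting error only). Ifng, the type II ligand, had 57 reads in KO4 and 0 to 5 in the other 7 libraries. No ligand passed the filter for the genotype test.

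Other genes of the pathway were not called either, as hardly any tested gene was (background 0.00612% higher, 0.0% lower). Among 12 receptor partners, kinases and regulators, 10 had a log2 difference above 0 (background 50.6%) and 0 were called (median 0.09). Their 2 most abundant genes were Stat3, with 3904 ± 484 in WT and 4246 ± 756 in Gsdme_KO (SD, n = 4), and Jak1, with 2592 ± 204 and 2683 ± 369.

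Of 22 tested sensors, adaptors and transcription factors upstream of interferon, 13 were above 0 (background 50.6%) and 0 called (median 0.11, 0.03 without KO4). Irf1, a transcription factor induced by interferon-gamma, reached 9964 in KO4 and 4799 in KO5, with 3020 to 4122 elsewhere. Of 53 tested further interferon-stimulated genes, 42 were above 0 (background 50.6%) and 0 called (median 0.19, -0.01 without KO4). The 2 most abundant were Lgals9, with 9967 ± 825 in WT and 10072 ± 1962 in Gsdme_KO, and Lgals3bp, with 8510 ± 305 and 9006 ± 820 (SD, n = 4).

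Genes induced by interferon-gamma are given beside the members because the gene sets that both kinds of interferon induce overlap in part. All 20 had a log2 difference above 0 (background 50.6%), and 0 were called (background 0.00612% higher, 0.0% lower). Their median log2 difference was 1.01, 0.25 without KO4 and -0.09 without KO4 and KO5. In KO4 they were 8.63-fold above the WT mean in the median gene, from 3.65-fold to 41.7-fold, against a median of 1.60-fold for the members and 0.992-fold for all tested genes. In KO5 the median was 1.96-fold for the interferon-gamma genes and 1.05-fold for the members. Gbp2, a guanylate-binding protein gene, had 23766 in KO4, 1710 in KO5 and 635 to 1088 in the other 6. Cd74, the invariant chain, had 30000 in KO4, 18189 in KO5 and 6654 to 11413 in the other 6. Examples were picked by their mean over all libraries, which a high KO4 value raises. The B cell genes were 104-fold above the WT mean in KO4 and 54.0-fold in KO5 in the median gene. Their part in the Cd74 values was not tested. The difference between the lists was not tested, since KO4 is 1 library.

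**Figure D4:**
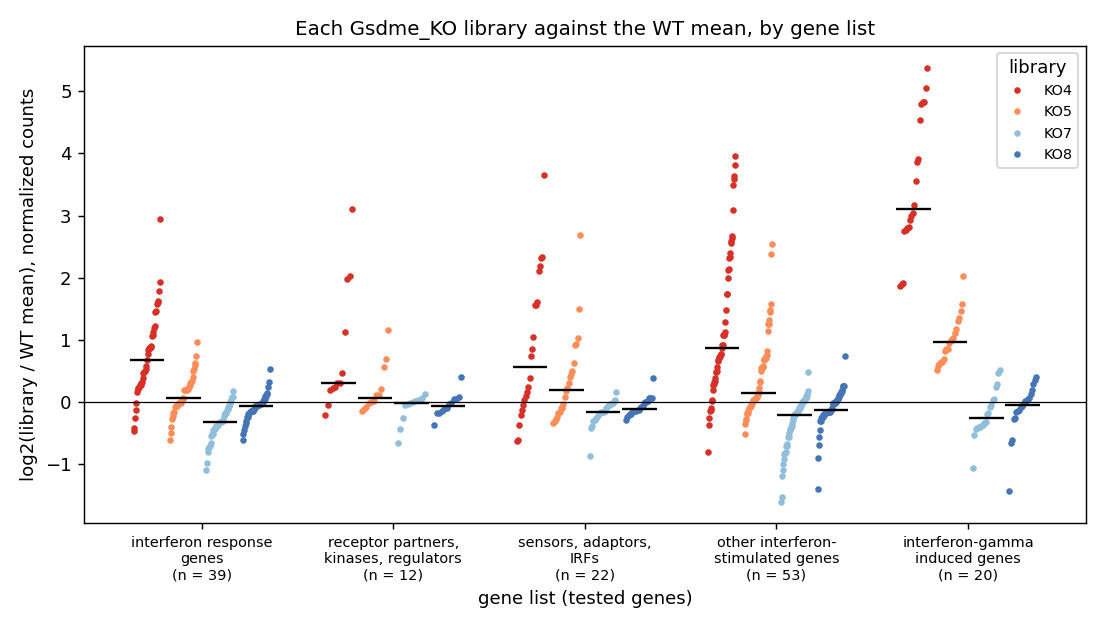
Log2 ratio of each Gsdme_KO library to the WT mean (normalized counts, y axis) for the tested genes of 5 lists (x axis, n in brackets). Points are genes, black lines are medians and colours are libraries. KO4 lies above the WT mean in all 20 interferon-gamma induced genes and in 34 of the 39 interferon response genes.

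Summed markers of B cells, T cells, neutrophils and macrophages were highest in KO4, then in KO5. The members stood out mainly in KO4, where their mean log2 value minus the WT mean was 0.77, against 0.14 in KO5. All 9 B cell genes, all 9 T cell genes and all 7 neutrophil genes had log2 differences above 0. So did 8 of 9 macrophage and monocyte genes (background 50.6% for each list). The neutrophil genes summed to 2055 in KO4, 1664 in KO5 and 506 to 1075 elsewhere, and the macrophage and monocyte genes to 7307 and 6062 against 4248 to 5361. The 7 markers of plasmacytoid dendritic cells, potent makers of type I interferon, summed to 10253 in KO4, 6151 in KO5 and 3630 to 5577 elsewhere, but they include Bst2, and the defining Siglech was low throughout, at 3.65 to 16.6. For the summed 5 Paneth cell genes the WT range was 140908 to 287770. KO4 lay inside it at 173184, whereas KO5 exceeded it at 374127. The 6 smooth muscle and stroma genes spanned 45285 to 60143 in WT. Here too KO4 was inside the range (45619) and KO5 above it (61705). The 4 large intestine genes spanned 3962 to 8724 in WT, and both KO4 (6812) and KO5 (5304) fell within that span. Of these, Aqp8 and Hoxb13 were at 0 in some libraries. Among the enterocyte markers, Lct was at 0 in KO4. The part of these cells in the interferon gene values was not tested.

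Compared per kilobase of annotated exon, a scale on which genes can be set beside each other, Ifi27l2a (1517 normalized counts per kilobase in WT), Irf7 (1411), Oasl1 (1229) and Isg15 (1188) were the most abundant members. Isg20 (47.5), Herc6 (44.7) and Mx2 (43.0) were the least. All 39 genes lie on 14 chromosomes in GRCm38, and 26 have no exon overlap with another GENCODE M21 gene. Overlaps on the same strand were found for 5 and on the opposite strand for 8. For the 5, reads in the overlap cannot be told apart from those of the other gene, and for the 8 this depends on the strand setting of the counting, which is unknown here. GENCODE lists 38 of the 39 as protein-coding and Mx2 as a polymorphic pseudogene.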

How the data were processed

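Ileal poly(A) RNA of 4 WT and 4 Gsdme_KO mice was sequenced, strand-specific per the labels' protocols. GRCm38, HISAT2, SAMtools, Subread, featureCounts and DESeq2 are named in the submitters' processing notes, without versions, annotation release or strand setting. The deposited signal is each gene's read count divided by 1 size factor per library, by the authors. Whole reads were recovered: 100% of values in each library were whole multiples of 1 step (tolerance 0.01 reads). Header numbers cannot be tied to label numbers, so columns were assigned to a genotype only.

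The test was limma-trend (limma 3.58.1, R 4.3.3) on log2(normalized count + 1), pseudocount 1, for 16352 genes with a mean of at least 10 over 8 libraries. Fold changes on this scale understate low genes. No covariate was used, and calls needed an adjusted p under 0.05. Alternatives were other pseudocounts, filters, scalings and weights, edgeR 4.0.16, DESeq2 1.42.0 and each library left out. Leaving out KO4 and KO5 together was added later. In simulated data for this comparison (16352 genes, 5 runs, 200 changed), the limma step called 57.2% of genes changed 2-fold and 93.6% changed 4-fold. Those counts were drawn gene by gene, without a shift shared by the genes of 1 library, and only more abundant genes were changed. The shares therefore do not give the power in the real libraries. There, Gsdme itself had a log2 difference of -3.32 and was not called (limma adjusted p = 0.786).

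The members, lists and tests were chosen with earlier results of these data known. Values per library were given for the 2 most abundant members of each role group, the 5 of smallest p and the 3 most positive and negative, and ranges for the rest. Other lists are represented by their 2 most abundant genes, except where a gene is not reported here. Positions, overlaps and exon lengths are from GENCODE M21 (GRCm38). Promoters are from RefSeq (GRCm38.p6). Windows were not at hand for Dhx58, Ifi27, Ifi27l2a, Mx1, Mx2, Oas2, Parp14, Parp9, Rtp4 and Usp18.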

Additional observations from a re-analysis of the deposited data

Results flagged for a closer look

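In groups of 4 libraries, 9 of 78 member and genotype combinations had 1 library whose gap to the next exceeded Dixon's 95% critical value, which chance alone passes in about 1 of 20 groups. In 7 of the 9 this was KO4, above the other Gsdme_KO libraries. The values in KO4 were 5054 normalized counts for Ifit2, 8758 for Oasl1, 1632 for Ifi27l2a, 1529 for Ifit3, 2258 for Ifi35, 1045 for Ifnar1 and 2571 for Ifih1. For Ifih1 the KO4 value lay inside the WT range, so it was set apart by the closeness of the other 3. Among WT libraries, WT5 was high for Usp18, at 610 against 375 to 415, and WT3 was low for Dhx58, at 319 against 425 to 440. The members share libraries and vary together, so these are not 9 independent events.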

How the results depend on the processing

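No paired analysis was possible because the library numbers in the table headers cannot be tied to the mouse numbers in the labels and no number marks a shared litter or day. No member was called in either direction under any of the alternatives run. With array quality weights 1 member was higher and 3 lower at an unadjusted p under 0.05, and edgeR and DESeq2 each gave 1 higher. Leaving out 1 library at a time gave 0 to 3 higher, 0 to 4 lower, 11 to 30 members above 0 and a median log2 difference of -0.0653 to 0.163. The lowest values came without KO4. With both KO4 and KO5 left out, which was chosen after seeing the data, 6 members were lower at an unadjusted p under 0.05, 6 lay above 0 and the median was -0.17.

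Log2 differences of single members also changed sign, none of them called: over all 39 members, 16 without KO4, 25 without KO4 and KO5, 4 with edgeR and 4 with DESeq2. The values that follow are for the 21 members given in every library. Without KO4 and KO5 they were 0.00135 for Cmpk2, -0.31 for Dtx3l, 0.18 for Ifi27, -0.10 for Ifi35, -0.38 for Ifit2, -0.0318 for Ifnar1, -0.0200 for Ifnar2, 0.0121 for Ifnlr1, -0.0227 for Irf7, -0.57 for Isg15, -0.13 for Oasl2, -0.20 for Stat2 and -0.20 for Usp18. With array quality weights they were -0.17 for Dtx3l, 0.16 for Ifi27, -0.0437 for Ifi35, -0.0178 for Ifnar1 and -0.24 for Isg15. Parp14 was at 0.0724 with edgeR and 0.0682 with DESeq2, and Eif2ak2, Irf9 and Mx2, outside the 21, also turned positive in both. With 1 library left out the range was -0.19 to 0.16 for Dtx3l, -0.13 to 0.11 for Ifi27, -0.0750 to 0.14 for Ifi35, -0.0344 to 1.12 for Ifit2, -0.0264 to 0.0581 for Ifnar1, -0.0347 to 0.0924 for Irf7, -0.31 to 0.40 for Isg15, -0.0113 to 0.39 for Oasl2, -0.34 to 0.12 for Parp14, -0.21 to 0.14 for Rtp4 and -0.13 to 0.28 for Stat2. The cause was not tested. The promoter motif with CT added at its end, which fewer sequences can match, occurred in 7 of the 29 members with a window (24.1%). Its background was 0.303% of the 27025 genes with a window.

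With 4 libraries a group and this spread, a 2-fold change would often be missed, and 10 members have intervals that reach beyond 2-fold.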
